A study of Mus musculus with 308 samples.

Results

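Kidney arrays of mice dosed with the salts of monoethyl fumarate (MEF) were set against kidney arrays of mice dosed with vehicle. The arrays were chosen by their titles, and 14 of the 46 kidney arrays in the series entered this comparison, 7 of MEF salts and 7 of vehicle. The mice were C57BL/6. Dosing was once a day over 10 days, and kidneys were collected 12 h later. The MEF group received a mixture of the Ca2+, Mg2+ and Zn2+ salts of MEF at 79.2 mg/kg, and the vehicle group received 0.8% hydroxypropyl methylcellulose. The other kidney groups used here held 8 arrays each. They were dimethyl fumarate (DMF) at 100 mg/kg, DMF at 179.2 mg/kg, DMF at 100 mg/kg together with MEF salts at 79.2 mg/kg, and a group labelled Nav, which the sources used here do not explain. Kidney is named in the array labels but is absent from the list of tissues in the study's design text. The sources used here give neither the age nor the sex of the mice, and do not say whether each array came from its own animal. The p-values therefore measure the spread between arrays. Salt and ester were given together, so the metal ions and the MEF cannot be told apart.

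MEF and DMF are esters of fumarate that react with cysteines. A known target is KEAP1, which otherwise marks the transcription factor NRF2 for degradation. NRF2 that escapes KEAP1 binds antioxidant response elements in DNA and drives genes for quinone reduction, glutathione use, heme breakdown and NADPH supply. Zinc is sensed by the transcription factor MTF1, which binds metal response elements and drives metallothioneins and the zinc exporter Slc30a1. The proximal tubule of the kidney takes up organic acids and is rich in conjugating enzymes.

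Short stretches of promoters are shown here because they hold the letters that these factors are known to bind in genes whose levels are described below. The core searched for the antioxidant response element was TGACNNNGC, and for the metal response element TGCACNC or TGCGCNC. A further core, TTTC followed by any 2 bases and TTTC, belongs to the interferon-stimulated response element and was searched after the levels of the interferon genes had been seen. Both strands were searched from 250 bases before to 50 bases after each start in the RefSeq promoter table of build GRCm38.p6. Each stretch reads 5′ to 3′ on the strand of its gene, and capitals mark the core on either strand. The antioxidant cores come from Pir (chrX:164269197-164269245, plus strand), Gclm (chr3:122245403-122245451, plus), Txnrd1 (chr10:82859094-82859142, plus), Ugdh (chr5:65435908-65435994, minus) and Abcc2 (chr19:43782190-43782238, plus). The metal core is from Mt1 (chr8:94179046-94179088, plus). The interferon cores are from Ifit1 (chr19:34640765-34640833, plus) and Trim30a (chr7:104465200-104465249, minus).
Pir: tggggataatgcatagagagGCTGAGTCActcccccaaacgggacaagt
Gclm: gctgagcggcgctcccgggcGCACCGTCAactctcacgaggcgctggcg
Txnrd1: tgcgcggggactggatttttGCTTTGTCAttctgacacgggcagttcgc
Ugdh: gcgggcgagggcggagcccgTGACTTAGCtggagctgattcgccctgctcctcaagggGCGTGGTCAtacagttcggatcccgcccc
Abcc2: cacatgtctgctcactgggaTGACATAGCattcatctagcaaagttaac
Mt1: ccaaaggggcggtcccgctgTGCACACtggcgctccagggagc
Ifit1: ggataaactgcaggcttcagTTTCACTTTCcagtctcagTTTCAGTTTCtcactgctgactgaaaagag
Trim30a: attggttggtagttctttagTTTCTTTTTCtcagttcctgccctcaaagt

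The values are deposited log2 expression values of 45141 probe sets. A gene was represented by its brightest probe set and was tested when that probe set lay above the kidney median of 5.10 in at least 5 kidney arrays, which left 10706 genes. Array medians were 5.11 to 5.14 for MEF salts and 5.09 to 5.13 for vehicle (exact permutation p = 0.0291, 0.0727 after adjustment over 5 quality measures). The MEF arrays resembled each other more closely than the vehicle arrays did, with a mean within-group correlation of 0.99818 to 0.99879 against 0.99782 to 0.99814 (n = 7 each). The 7 values of a group share pairs of arrays and are not independent, so no p-value is given for them. Hybridisation controls averaged 11.66 on MEF arrays and 11.55 on vehicle arrays (exact permutation p = 0.0705). No 2 kidney arrays held identical values. Defining kidney genes were bright in both groups, among them the organic anion transporter Slc22a6 of the proximal tubule (12.09 with MEF salts and 11.90 with vehicle) and calbindin Calb1 of the distal tubule (12.17 and 12.43).

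MEF salts raised a set of detoxifying and conjugating enzymes in kidney, among them Cbr3, Cyp2d9 and Gstm1, and lowered a smaller set led by the bile acid transporter Slc10a2, the histamine-forming enzyme Hdc and the matrix enzyme Loxl4. By limma over all 46 kidney arrays, 1520 of 10706 genes (14.2%) passed a Benjamini-Hochberg adjusted p of 0.05. They were 937 genes (8.75%) higher with MEF salts and 583 (5.45%) lower. Most differences were small. The median size of the calls was 0.23 on the log2 scale, and 1468 of them were under 1.5-fold. The other 52 calls (0.486%) reached 1.5-fold, 29 higher and 23 lower, and 16 reached 2-fold, 10 higher and 6 lower. Groups did not overlap at 466 genes (4.35%), of which 385 were calls. The median difference over all tested genes was 0.008.

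**Figure D1:**
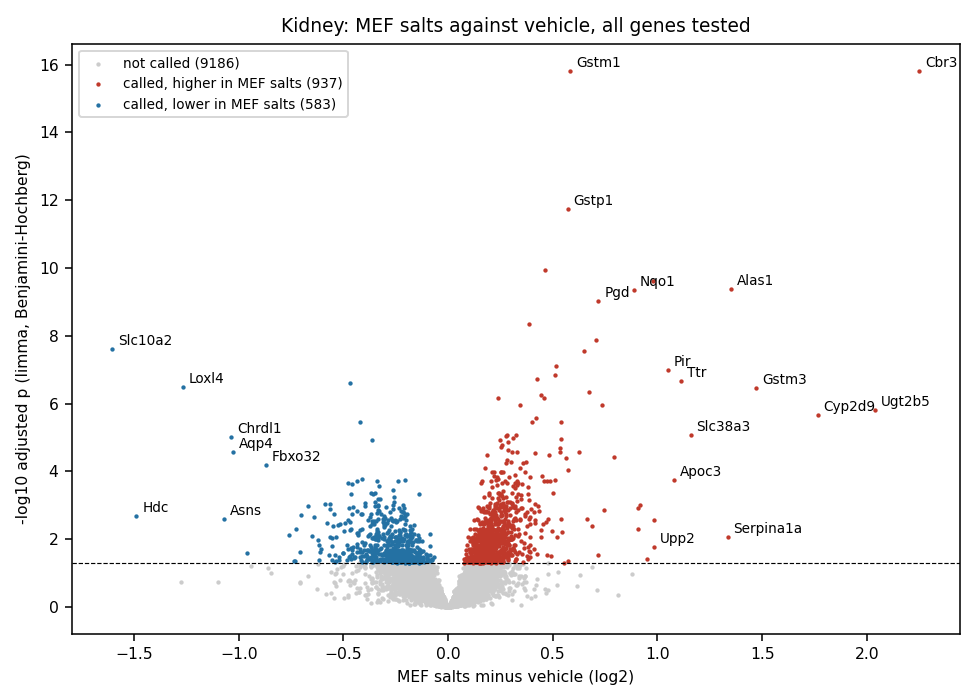
Each point is 1 of the 10706 genes tested, with the MEF salts minus vehicle difference (log2) on the x axis and minus log10 of the limma adjusted p on the y axis; the dashed line marks 0.05. Cbr3 and Gstm1 stand highest, and most of the 1520 calls lie close to 0 on the x axis.

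The count of small calls depended on the control group, while most large ones did not. The Nav group differed from vehicle at 5332 genes (49.8%), more than any dosed group did. With Nav in place of vehicle, 35 of the 52 calls of at least 1.5-fold were called in the same direction, against 300 of the 1468 smaller calls. Of all 10706 genes, 3549 were called between MEF salts and Nav, 1468 higher and 2081 lower with MEF salts. Among the 15 largest increases and 15 largest decreases, 13 and 12 were also called in the same direction against Nav. Both comparisons use the same MEF arrays. Differences of Nav from vehicle were about as large as those of MEF salts for some genes described below, among them Cbs (0.42 with MEF salts and 0.44 in Nav), Pgls (0.21 and 0.25), Abcb6 (0.28 and 0.25) and Nfe2l1 (0.16 and 0.18).

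The largest increase was that of Cbr3, a carbonyl reductase. It lay between 7.95 and 8.57 on MEF arrays (median 8.38) and between 5.61 and 6.27 on vehicle arrays (median 6.17). Every MEF array was above every vehicle array. The fitted difference was 2.25 ± 0.14 (SE, 4.76-fold, adjusted p = 1.51e-16). Nqo1, the quinone reductase often used as a readout of NRF2, stood at 10.62 to 10.96 (median 10.80) with MEF salts and at 9.73 to 10.07 (median 9.92) with vehicle, again without overlap. Its difference was 0.89 ± 0.09 (adjusted p = 4.35e-10). Pir encodes the iron-binding nuclear protein pirin, and its promoter stretch is shown above. It had 5.69 to 6.20 (median 5.93) with MEF salts and 4.74 to 5.06 (median 4.84) with vehicle, a difference of 1.05 ± 0.13. All its vehicle arrays lay below the filter level of 5.10. Its call is therefore counted among the 7 below but is a description only. Of 19 tested reductases and oxidases listed as NRF2 targets, 7 rose (36.8%, where 8.75% of all genes tested rose), none fell and 12 did not pass. Their median difference was 0.28. In Nav against vehicle, 5 of the 19 were higher and 3 lower, with a median of 0.105, where 49.8% of all genes were called. The others that rose with MEF salts were the aldehyde dehydrogenase Aldh1a1 (0.69), the epoxide hydrolase Ephx1 (0.54), the aldo-keto reductase Akr1c19 (0.45) and Cbr1 (0.16). Aldh3a1, an aldehyde dehydrogenase, had a difference of 0.40 ± 0.40 (adjusted p = 0.528) and overlapping groups, 3.82 to 5.44 with MEF salts and 3.52 to 4.37 with vehicle. The aldo-keto reductase Akr1b8 had 0.48 ± 0.20 (adjusted p = 0.105).

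**Figure D2:**
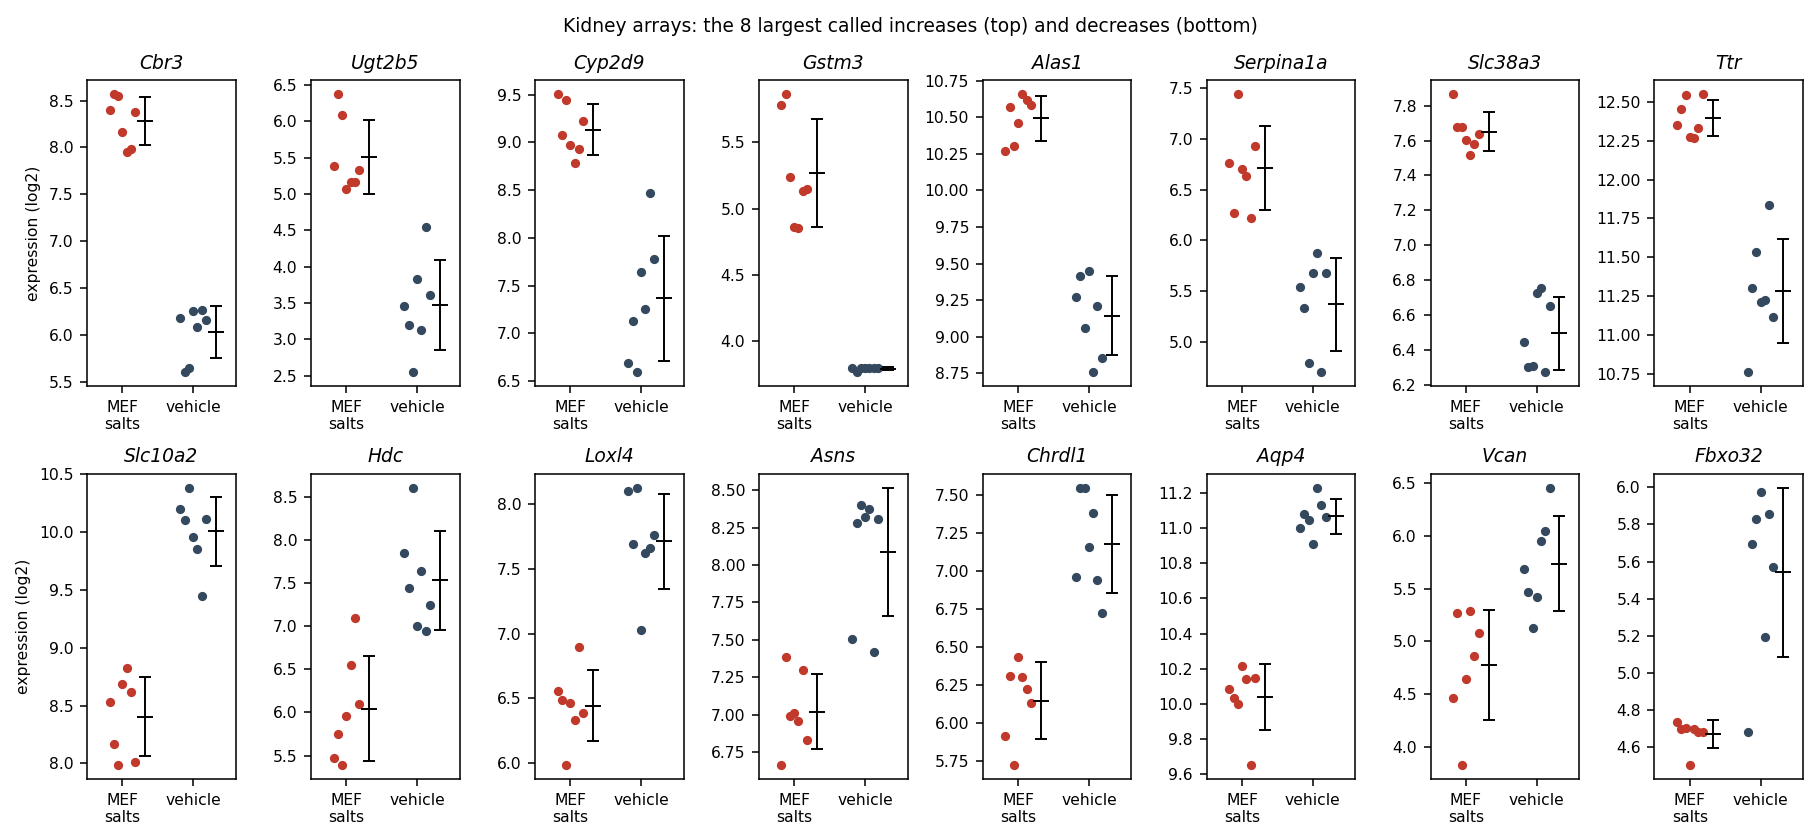
Each panel shows 1 gene, each point 1 array (log2 expression), with 7 MEF salts arrays on the left and 7 vehicle arrays on the right; the bar beside the points is the mean ± SD. The top row holds the 8 largest called increases, none with overlapping groups, and the bottom row the 8 largest decreases, where Hdc, Vcan and Fbxo32 overlap.

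Glutathione transferases, which join glutathione to electrophiles, rose at 7 of 16 tested members (43.8%, where 8.75% of all genes rose) and fell at none. Their median difference was 0.15. In Nav against vehicle, 8 of the 16 were higher and 2 lower, with a median of 0.1, where 49.8% of all genes were called. Gstm1 had 12.52 to 12.67 (median 12.62) with MEF salts and 11.94 to 12.08 (median 12.03) with vehicle, a narrow spread in both groups. It rose by 0.58 ± 0.04, or 1.5-fold, at the same adjusted p as Cbr3 (1.51e-16). Gstp1 rose by 0.57 ± 0.05 (adjusted p = 1.83e-12), Gstm4 by 0.67 ± 0.09 and Gsta4 by 0.45 ± 0.06. Gstm3 had 4.86 to 5.86 (median 5.15) with MEF salts and 3.77 to 3.80 (median 3.80) with vehicle, a difference of 1.47. It passed the filter only through groups given DMF or MEF salts, so its call is counted among the 7 but is a description only. A further Gstm3 probe set had a difference of 0.01. Family members are alike in sequence, and how far their probes share transcripts was not tested. In glutathione synthesis and cystine uptake, 3 of 11 tested genes rose (27.3%) and none fell. Nav against vehicle had 4 of these 11 higher and 3 lower, with a median of 0.04. Gclm, the regulatory subunit of the rate-limiting ligase, had 10.75 to 10.92 (median 10.78) with MEF salts and 10.17 to 10.35 (median 10.31) with vehicle and rose by 0.51 ± 0.06 (adjusted p = 7.88e-08). Cbs, which makes cystathionine on the way to cysteine, rose by 0.42, and glutaredoxin Glrx by 0.23. The catalytic subunit Gclc had 0.31 ± 0.16 (adjusted p = 0.184), and the cystine carrier Slc7a11 was at the lowest value of the table, 2.14, in both groups.

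Of 8 tested genes of NADPH production and the pentose phosphate pathway, 4 rose (50%, where 8.75% of all genes rose) and none fell. The list joins genes of that pathway with Me1, Idh1 and Idh2. Nav against vehicle had 3 of these 8 higher and 3 lower. Phosphogluconate dehydrogenase Pgd had 10.92 to 11.20 (median 11.02) with MEF salts and 10.15 to 10.62 (median 10.35) with vehicle, a difference of 0.72 ± 0.07 (adjusted p = 9.61e-10). Transketolase Tkt rose by 0.32, Pgls by 0.21 and transaldolase Taldo1 by 0.15. G6pd2, a retrogene copy of glucose-6-phosphate dehydrogenase outside this list, rose by 0.74 ± 0.10 (adjusted p = 1.07e-06); the parent gene was not analysed here, and the probes may read both.

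Genes of heme breakdown and iron storage rose at 5 of 10 tested members (50%, where 8.75% of all genes rose) and fell at none. Their median difference was 0.108. Nav against vehicle had 5 of these 10 higher and 3 lower, with a median of 0.099. The biliverdin reductase Blvrb had 8.67 to 9.13 (median 8.88) with MEF salts and 7.92 to 8.48 (median 8.13) with vehicle, and rose by 0.70 ± 0.08 (adjusted p = 1.3e-08). Heme oxygenase Hmox1 rose by 0.48 ± 0.08, the porphyrin transporter Abcb6 by 0.28, ferrochelatase Fech by 0.12 and Hmox2 by 0.10. The Hmox2 call was lost under 12 of 23 alternative settings (adjusted p up to 0.132), and Fech had -0.04 with its probe sets averaged. Alas1, the first and rate-limiting enzyme of heme synthesis, lay between 10.27 and 10.66 (median 10.57) with MEF salts and between 8.76 and 9.45 (median 9.21) with vehicle. Its 1.35 ± 0.13 (2.55-fold, adjusted p = 4.24e-10) was larger than that of any other heme gene named here. Cyp2d9, a cytochrome P450 and thus a heme protein, had 8.79 to 9.51 (median 9.08) with MEF salts and 6.60 to 8.47 (median 7.26) with vehicle, and rose by 1.77 ± 0.24 (adjusted p = 2.15e-06).

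Glucuronidation genes rose at 4 of 8 tested members (50%, where 8.75% of all genes rose) and fell at none, with a median of 0.17. Nav against vehicle had none of these 8 higher and 2 lower. Ugt2b5, a glucuronosyltransferase, had 5.07 to 6.38 (median 5.33) with MEF salts and 2.55 to 4.54 (median 3.45) with vehicle, a difference of 2.04. All its vehicle and Nav arrays lay below the filter level, so its call is counted among the 4 but is a description only, and its size on the compressed low end of the scale is uncertain. The brighter Ugt2b34 rose by 0.51 ± 0.06 (adjusted p = 1.4e-07). Ugdh and Ugp2, which make the sugar donor, rose by 0.30 and 0.20. Among 9 efflux pumps, 33.3% were called, against 14.2% of all genes. The conjugate exporters Abcc4 and Abcc2 rose by 0.47 and 0.42, and Abcc5 fell by 0.31. Carboxylesterases, which cleave esters, rose at 3 of 8 (37.5%, against 8.75% of all genes) and fell at none: Ces2e by 0.56 ± 0.09, Ces1f by 0.42 and Ces1g by 0.30. The call was lost under 3 of 23 settings for Ces1f and 6 of 22 for Ces1g. Thioredoxin and peroxidase genes rose at 4 of 19 (21.1%, against 8.75% of all genes) and fell at none, with a median of 0.003. Among those that rose were thioredoxin reductase Txnrd1 (0.18 ± 0.03, adjusted p = 7.85e-05) and sulfiredoxin Srxn1 (0.25 ± 0.05). Proteasome subunits rose at 9 of 35 (25.7%, against 8.75% of all genes) and fell at none, all by small amounts, with Psmb2 at 0.28 ± 0.05 (adjusted p = 5.6e-05) and a list median of 0.04. In Nav against vehicle, 14 of the 35 were higher and 3 lower, and the median was 0.08. The message of NRF2 itself, Nfe2l2, fell by 0.23 ± 0.07 (adjusted p = 0.0235; a second probe set had 0.09), and the related factor Nfe2l1 rose by 0.16. Keap1 was not analysed here.

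**Figure D3:**
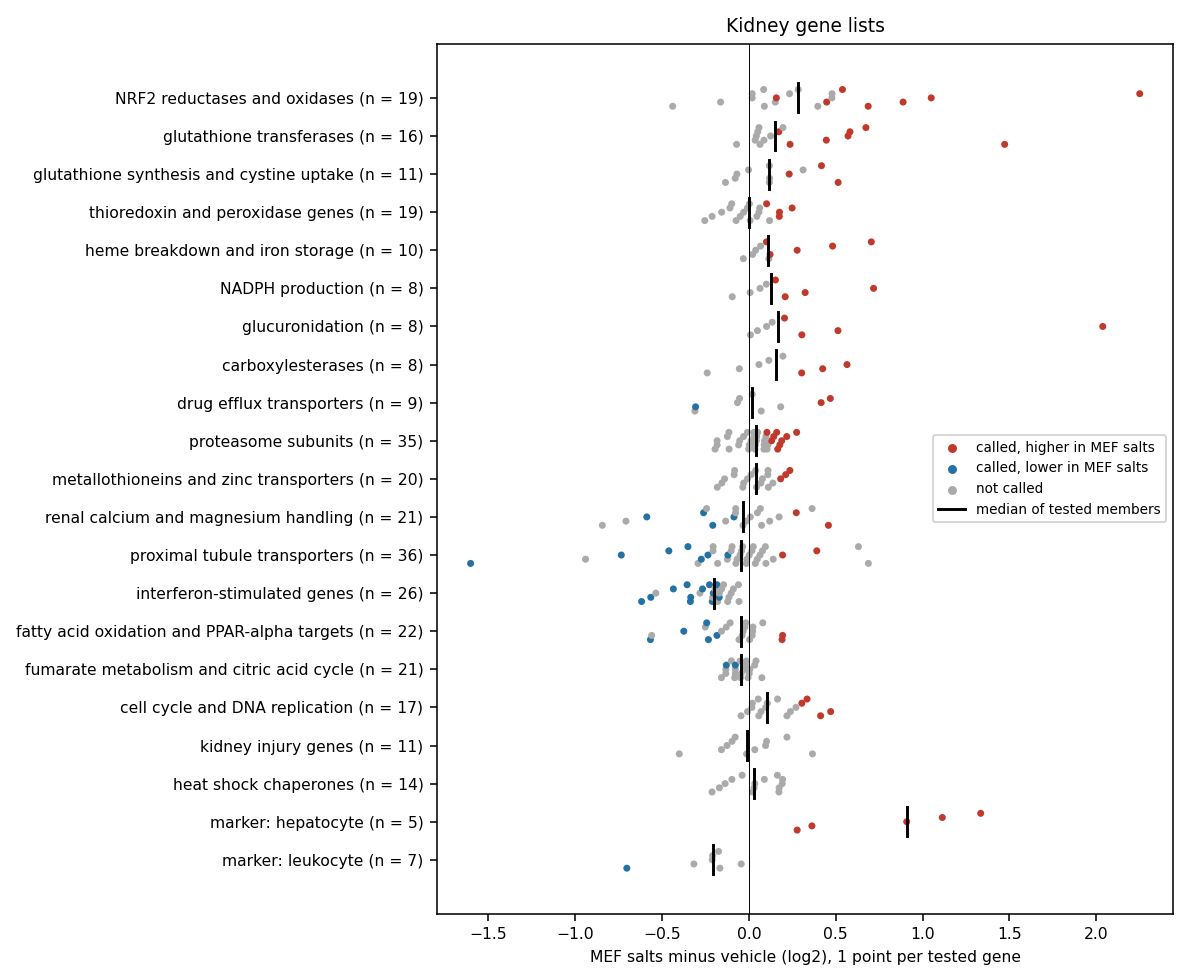
Each point is 1 tested gene of the list named on the left, placed by its MEF salts minus vehicle difference (log2); red and blue points passed the test and black bars are medians. Antioxidant, conjugation and NADPH lists hold red points and no blue ones, interferon-stimulated genes all lie left of 0, and kidney injury genes and heat shock chaperones hold no called gene.

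The antioxidant core was present at close to the same share among genes that rose, genes that fell and all genes. It was found in 16.7% of the 780 called-higher genes with a promoter in the table, in 16.9% of the 445 called-lower genes and in 17% of all 8642 tested genes with a promoter. Metal cores were found in 42.2%, 38.4% and 40.3% of the same sets. Short cores are common in any sequence, and elements outside these windows were not searched.

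Genes of zinc handling were called, in either direction, at close to the share of all genes. Of 20 tested metallothioneins and zinc transporters, 3 (15%) rose and none fell. Of all genes, 8.75% rose and 14.2% were called in either direction. The median difference of the 20 was 0.04. Mt1, whose metal core is shown above, had 11.65 to 12.04 (median 11.77) with MEF salts and 11.70 to 11.87 (median 11.74) with vehicle. Its groups overlapped, and its difference of 0.07 ± 0.07 (adjusted p = 0.512) did not pass. Mt2 was not analysed here. The zinc exporter Slc30a1 had 11.71 to 11.85 (median 11.78) with MEF salts and 11.40 to 11.69 (median 11.58) with vehicle, without overlap, and rose by 0.21 ± 0.05 (adjusted p = 0.00411). The zinc importers Slc39a7 and Slc39a11 rose by 0.24 and 0.18.

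Among 21 tested genes of calcium and magnesium handling, 2 rose and 4 fell (28.6% called, against 14.2% of all genes). Those that fell act in the distal tubule. The sodium-calcium exchanger Slc8a1 had 9.43 to 9.71 (median 9.61) with MEF salts and 9.88 to 10.42 (median 10.24) with vehicle, and fell by 0.59 ± 0.12 (adjusted p = 0.000904). The calcium-binding protein Calb1 had 12.06 to 12.26 (median 12.16) with MEF salts and 12.30 to 12.51 (median 12.44) with vehicle, and fell by 0.26 ± 0.06 (adjusted p = 0.0013). Klotho, Kl, fell by 0.21 ± 0.04 (adjusted p = 0.00018), and S100g by 0.09, a call lost under 5 of 23 settings (adjusted p up to 0.113). Groups of these 4 genes did not overlap, as was true of 4.35% of all genes. Distal convoluted tubule markers, a list that shares Calb1 and Trpm6 with this one, fell at 2 of 5 and rose at none (median -0.24). That is 40%, where 5.45% of all genes fell. The 2 were Calb1 and Slc12a3, and the Slc12a3 call was lost under 9 of 23 settings (adjusted p up to 0.0825). Podocyte markers also fell at 2 of 5 and rose at none (median -0.113). The podocyte calls, Wt1 and Synpo, were lost under 12 and 3 of 23 settings. In whole kidney, fewer cells of a type and less RNA per cell cannot be told apart. Slc8a1, Calb1, Kl and S100g had differences of -0.45, -0.32, -0.14 and -0.09 in the Nav group against vehicle. The claudin Cldn16 rose by 0.27 and the magnesium transporter gene Cnnm4 by 0.46 ± 0.08 (adjusted p = 0.000191). The magnesium channel Trpm6 had -0.24 ± 0.14 (adjusted p = 0.231).

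Slc10a2, the sodium-dependent bile acid transporter of ileum and proximal tubule, had the largest decrease. It lay between 7.98 and 8.83 (median 8.53) with MEF salts and between 9.45 and 10.38 (median 10.11) with vehicle. The fitted difference was -1.60 ± 0.18 (3.04-fold lower, adjusted p = 2.51e-08), and its other probe set had -1.10. Of 36 tested proximal tubule transporters, 2 rose and 7 fell (25% called, against 14.2% of all genes), with a median of -0.05. The organic anion transporter Slco1a6 fell by 0.46 ± 0.09 (adjusted p = 0.000243), the lactate carrier Slc5a12 by 0.35 and the imino acid carrier Slc6a20b by 0.27. Slc22a19 had 11.12 to 11.85 (median 11.57) with MEF salts and 12.17 to 12.36 (median 12.23) with vehicle. It fell by 0.73 ± 0.25 (adjusted p = 0.0438), and the metalloprotease Mep1b by 0.73 ± 0.25 (adjusted p = 0.0449). Both calls were lost under most alternative settings, with the adjusted p reaching 0.0887 and 0.0877. The urate transporter Slc22a12 rose by 0.39 and Slc22a6 by 0.19. Proximal tubule markers rose at 1 of 7, Slc22a6, and fell at none (14.3%, where 8.75% of all genes rose and 14.2% were called in either direction).

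Other genes with large decreases had different roles. Hdc, which forms histamine from histidine, had 5.39 to 7.10 (median 5.95) with MEF salts and 6.95 to 8.61 (median 7.44) with vehicle. Its groups overlapped at the edge, and the difference was -1.49 ± 0.33 (adjusted p = 0.00203; -0.99 for its other probe set). Loxl4, a lysyl oxidase relative that cross-links collagen, had 5.98 to 6.90 (median 6.47) with MEF salts and 7.03 to 8.13 (median 7.69) with vehicle. It fell by 1.27 ± 0.16 (adjusted p = 3.23e-07), while its dimmer probe set had -0.14. The BMP antagonist Chrdl1 fell by 1.04 ± 0.15 and the water channel Aqp4 by 1.03 ± 0.16, with medians of 10.08 with MEF salts and 11.06 with vehicle for Aqp4. Asparagine synthetase Asns fell by 1.07 ± 0.24 (adjusted p = 0.00252), the muscle-type ubiquitin ligase Fbxo32 by 0.87 ± 0.15, and the homocysteine methyltransferase Bhmt by 0.76 ± 0.20. Versican, Vcan, fell by 0.96 ± 0.30 (adjusted p = 0.0254); the call was lost without MEF array 27 or vehicle array 8. The acyl-CoA thioesterase Acot7 fell by 0.71 ± 0.22, a call lost without MEF array 27 or vehicle array 3.

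Interferon-stimulated genes were lower as a group. Of 26 tested, 12 fell (46.2%, where 5.45% of all genes fell) and none rose, all 26 differences were negative, and the median was -0.20 against 0.008 over all genes tested. Usp18, which restrains the interferon receptor, had 5.95 to 6.57 (median 6.18) with MEF salts and 6.29 to 7.03 (median 6.88) with vehicle, and fell by 0.56 ± 0.12 (adjusted p = 0.00093). Rtp4 fell by 0.43 ± 0.09 (adjusted p = 0.00143), Trim30a by 0.34 ± 0.09, Oasl2 by 0.33 ± 0.09 and the viral entry restriction factor Ifitm3 by 0.21 ± 0.05 (adjusted p = 0.00215). Ifit1, which binds foreign RNA and was chosen after its value was seen, fell by 0.62 ± 0.17 (adjusted p = 0.0148). Groups of the genes named here overlapped. Averaged over the 34 listed genes on the array, arrays ranged from 6.52 to 6.77 (median 6.69) with MEF salts and from 6.73 to 6.95 (median 6.89) with vehicle, while Nav arrays ranged from 6.74 to 7.08. The interferon core was present in 6 of 9 called-lower members with a promoter, in 7 of 13 members that were not called, and in 3.64% of all tested genes with a promoter. Of 7 tested leukocyte markers, 1 was called, and it fell (14.3%, where 5.45% of all genes fell and 14.2% were called in either direction). The pan-leukocyte phosphatase Ptprc had 5.81 to 6.46 (median 5.99) with MEF salts and 6.50 to 7.05 (median 6.78) with vehicle, and fell by 0.70 ± 0.16 (adjusted p = 0.00197). All 7 differences were negative, with a median of -0.21. Averaged over 11 markers, the range was 5.01 to 5.40 with MEF salts and 5.13 to 5.76 with vehicle; Itgam was at or near the lowest value in both groups. The part of leukocytes in the interferon genes' decrease was not tested.

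Genes best known as secreted products of liver were higher in kidney with MEF salts, and several of them in Nav too. Transthyretin, Ttr, a carrier of thyroid hormone and retinol-binding protein, had 12.27 to 12.55 (median 12.35) with MEF salts and 10.76 to 11.84 (median 11.22) with vehicle, and rose by 1.11 ± 0.14 (adjusted p = 2.2e-07). The apolipoprotein Apoc3 had 10.93 to 11.75 (median 11.40) with MEF salts and 9.93 to 10.76 (median 10.22) with vehicle, and rose by 1.08 ± 0.19. Neither gene's groups overlapped. Serpina1a rose by 1.33 ± 0.35 (adjusted p = 0.00849), the complement gene C8g by 0.98 ± 0.09 (adjusted p = 2.36e-10) and Apoa1 by 0.91 ± 0.19. Albumin Alb rose by 0.36 ± 0.11 and Apoa2 by 0.28 ± 0.06. Apoc2 had a difference of 0.92 ± 0.19, with medians of 5.41 with MEF salts and 4.44 with vehicle. All its vehicle arrays lay below the filter level of 5.10, so its call is a description only. All 5 tested hepatocyte markers rose (median 0.91), where 8.75% of all genes rose. Over the 6 on the array the mean was 7.30 to 7.63 with MEF salts and 6.54 to 6.86 with vehicle. Cps1, an abundant hepatocyte enzyme, was at the lowest value of the table, 2.14, in both groups. The part of liver RNA in these increases was not tested. In the Nav group against vehicle, 4 of the 5 markers were called higher, with a median of 0.37, where 3211 of all 10706 genes were called higher. Apoc2 had 0.84, Apoa1 0.68, Apoa2 0.40, Alb 0.37 and Serpina1a -0.42.

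Several other increases lay outside these groups. The glutamine transporter Slc38a3 had 7.52 to 7.87 (median 7.64) with MEF salts and 6.27 to 6.76 (median 6.44) with vehicle, and rose by 1.16 ± 0.17 (adjusted p = 8.29e-06), while its other probe set had -0.04. Endothelial lipase Lipg rose by 0.98 ± 0.22 (adjusted p = 0.00264) and uridine phosphorylase Upp2 by 0.98 ± 0.28 (adjusted p = 0.0165), a call lost without vehicle array 1 (adjusted p = 0.0528). The clock gene Per1 rose by 0.95 ± 0.32 (adjusted p = 0.0376), but its groups overlapped across most of their range, 13 alternative settings ended the call, and Nav stood 0.97 above vehicle.

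None of 11 kidney injury genes, 16 cholesterol synthesis genes or 14 heat shock chaperones passed the test in either direction. Of 21 genes of fumarate metabolism and the citric acid cycle, 2 fell and none rose (9.52%), Mdh2 by 0.13 and Fah by 0.08. Of all genes, 5.45% fell and 14.2% were called in either direction. The Mdh2 and Fah calls were lost under 18 and 11 of 23 settings (adjusted p up to 0.184 and 0.117), and fumarate hydratase Fh1 had -0.08 ± 0.04 (adjusted p = 0.207). The hydroxycarboxylic acid receptor Hcar2, known on myeloid cells, was at or near the lowest value in both groups. Of 22 fatty acid oxidation genes, 5 fell and 2 rose (31.8% called, against 14.2% of all genes). Those that fell included Pdk4, by 0.57 ± 0.18, and Acot1, by 0.38. The Pdk4 call was lost under 10 of 23 settings (adjusted p up to 0.108) and the Acot1 call under 2. Cell cycle genes rose at 4 of 17 (23.5%, against 8.75% of all genes) and fell at none, namely Tk1 (0.47), Mcm6 (0.41), E2f1 (0.34) and Tyms (0.30). The Tk1 call was lost under 6 of 22 settings, and in Nav against vehicle 6 of the 17 were higher and 1 lower, with a median of 0.11. Ribosomal protein genes fell at 7 of 65 (10.8%, against 5.45% of all genes), all by under 0.2. Respiratory chain subunits rose at 1 and fell at 2 of 72 (4.17% called, against 14.2% of all genes).

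The same genes in the other kidney groups are set side by side with MEF salts; all share the vehicle arrays. For Cbr3 the difference from vehicle was 2.25 with MEF salts, 2.23 with DMF at 100 mg/kg, 2.63 with DMF at 179.2 mg/kg, 2.69 with the combination and 0.20 in Nav. For Alas1 the same order gave 1.35, 0.90, 1.05, 1.35 and 0.28. For Slc10a2 it gave -1.60, -0.92, -1.79, -1.84 and -0.40. DMF at 100 mg/kg alone had 866 calls (8.09%) against vehicle.

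**Figure D4:**
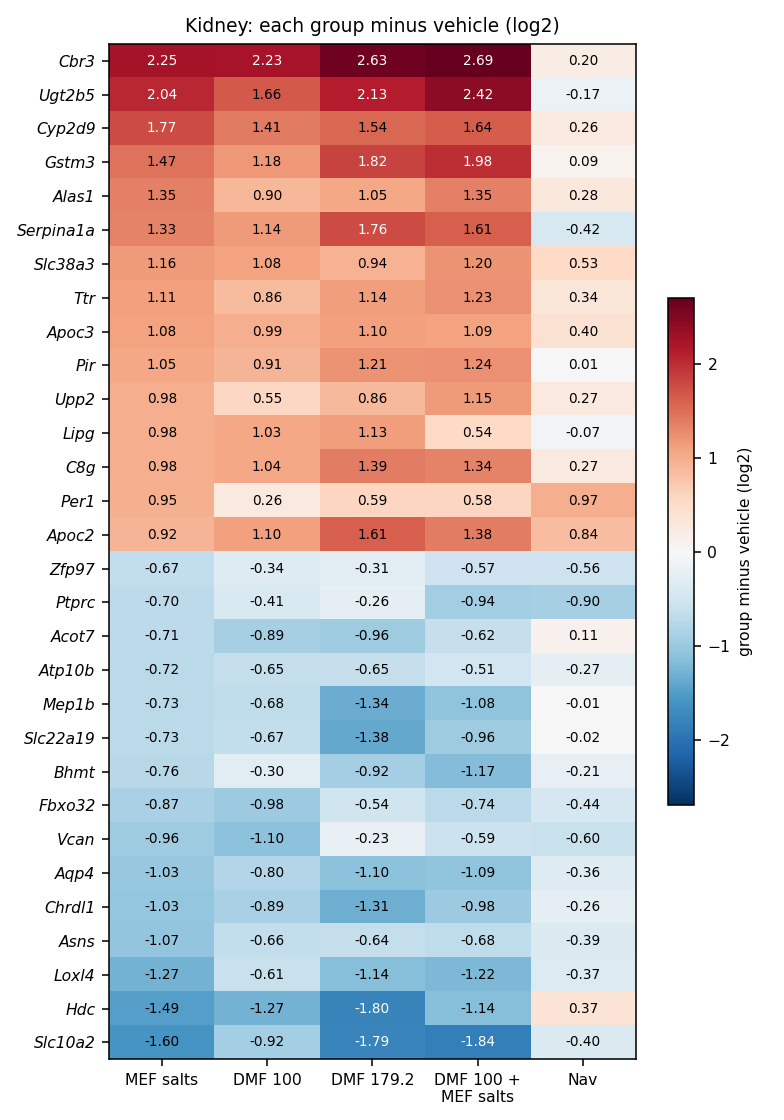
Rows are the 15 largest called increases and 15 largest called decreases with MEF salts, columns are kidney groups, and each cell is that group's difference from vehicle (log2); doses are in mg/kg. The 4 dosed columns share sign in every row, and the Nav column is near 0 in many rows but not for Per1, Apoc2 or Ptprc.

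Set directly against DMF at 100 mg/kg, MEF salts at 79.2 mg/kg differed at 257 of 10706 genes (2.4%), 164 higher and 93 lower with MEF salts, and 9 of them by at least 1.5-fold. The doses differ, so compound and dose cannot be told apart. Aldh3a1 had the largest difference. It averaged 4.57 ± 0.57 with MEF salts (SD, n = 7) and was lower than with DMF by 1.39 ± 0.39 (SE). All its vehicle and Nav arrays and most MEF arrays lay below the filter level of 5.10. It passed the filter through groups given DMF, so its call is counted but is a description only. Loxl4 and Slc10a2, both lowered by MEF salts, fell by 0.66 ± 0.16 and 0.69 ± 0.18 relative to DMF (adjusted p = 0.017 and 0.0275). The clock gene Npas2 was lower by 0.79, the stress gene Ier3 by 0.71 and the cold-inducible Rbm3 by 0.70. Alas1 was 0.45 ± 0.13 higher with MEF salts than with DMF (adjusted p = 0.0417), the repressor Bcl6 by 0.88 ± 0.20 and the endoplasmic reticulum stress gene Herpud1 by 0.52 ± 0.11. Gclm was higher by 0.22 (adjusted p = 0.0354) and Akr1c19 lower by 0.31 (adjusted p = 0.0238). For Cbr3 the MEF minus DMF difference was 0.02 with a 95% interval from -0.25 to 0.28, for Nqo1 0.07 (-0.10 to 0.24), for Hmox1 -0.01 (-0.17 to 0.14) and for Ugt2b5 0.38 (-0.16 to 0.92). With the hybridisation controls as a covariate, 16 of the 257 calls were left. Centring each array turned the split to 128 higher and 146 lower, and renewed quantile normalization to 119 and 130.

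The response of kidney to MEF salts differed from that of jejunum at 197 of 9695 genes tested in both tissues (2.03%), with 150 more positive and 47 more negative in kidney; centring each array gave 88 and 68. Jejunum had 7 MEF arrays and 8 vehicle arrays. In a joint fit, Cbr3 rose by 2.25 ± 0.23 in kidney and 0.51 ± 0.22 in jejunum, a difference of 1.74 ± 0.32 (adjusted p = 0.00049). Alas1 rose by 1.35 ± 0.11 in kidney and had 0.003 ± 0.11 in jejunum (difference 1.35 ± 0.16, adjusted p = 7.35e-09). Loxl4 fell by 1.27 ± 0.12 in kidney and had -0.02 ± 0.12 in jejunum (difference -1.25 ± 0.17, adjusted p = 1.83e-07). Ttr, Apoc3 and Apoa1 had 1.11, 1.08 and 0.91 in kidney and 0.17, 0.10 and 0.02 in jejunum. The carboxylesterases went the other way. Ces1g had 0.30 ± 0.31 in kidney and 2.00 ± 0.30 in jejunum, and Ces1f had 0.42 ± 0.21 in kidney and 1.87 ± 0.20 in jejunum. Akr1b8 and the glutathione transferase Gsta2 had 0.48 and 0.09 in kidney and 1.72 and 1.30 in jejunum. In kidney Gsta2 averaged 12.82 with MEF salts and 12.73 with vehicle.

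**Figure D5:**
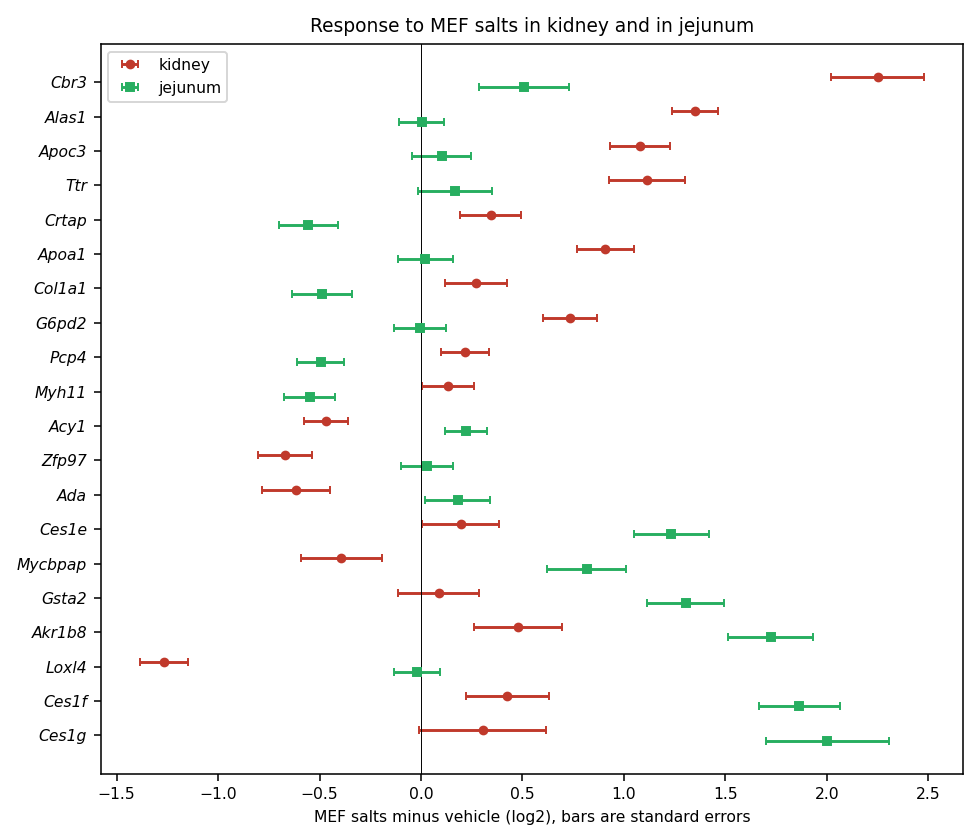
For the 20 genes with the largest called difference between tissues, points give the MEF salts minus vehicle difference (log2) in kidney (circles) and jejunum (squares), with standard errors as bars, both from a joint fit. Cbr3, Alas1 and liver-type secreted genes lie further right in kidney, and carboxylesterases, Akr1b8 and Gsta2 further right in jejunum.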

How the data were processed

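RNA from kidney was labelled as biotin cRNA and hybridised to Affymetrix mouse HT MG-430 PM arrays. The authors deposited log2 expression values for 45141 probe sets; the submitters' processing notes name RMA, GCRMA, R 2.11.1 and limma 3.4.5, with no order of steps. In kidney 21.2% of values sit at the lowest value, 2.14, which compresses dim genes. The deposited values were used without further normalization.

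Of the probe sets, 28898 carried 1 gene symbol in the platform annotation, 551 several and 15692 none; 28689 matched RefSeq (GRCm38.p6). The probe set with the highest mean represented each of 17097 genes. limma 3.58.1 in R 4.3.3 (package data.table, release 1.17.8) was used to fit group means over 46 kidney arrays, with Benjamini-Hochberg adjustment over all genes tested. Errors of differences are standard errors, and intervals are 95%. The number of arrays limits the precision. The tissue comparison fitted kidney and jejunum arrays together. Quality measures were compared with exact two-sided permutation tests. The result for within-group correlations is not given, because their values are not independent.

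Named genes are the 15 largest calls each way, up to 5 called members of each list by adjusted p, a fixed set, and the 10 largest calls each way in the other comparisons; Aldh1a1, Cbr1, Slc5a12 and Ifit1 lie outside this rule and were chosen after their values were seen. The comparison, lists and naming rule were chosen with earlier results of these data known. Lists are described by counts and medians, without a set test. Alternatives were no filter, a 70th percentile filter, centring, renewed quantile normalization, array weights, a trended robust variance, averaged probe sets, the groups alone, Nav as control, a replicate block across tissues, leaving out each array and, chosen after seeing the data, a hybridisation control covariate. In a test on simulated data for MEF salts minus vehicle in kidney (10706 genes, 50 changed per fold), 72% of genes changed 1.25-fold, 92% at 1.5-fold, 96% at 2-fold and 100% at 3-fold were recovered, and 6 of 186 calls were false. The simulation drew noise for each gene on its own, so it held no shifts shared by the genes of an array. Its share of false calls need not hold for the real calls.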

Additional observations from a re-analysis of the deposited data

Results flagged for a closer look

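Single arrays stood apart from the rest of their group in 10 of 98 sets of 7 arrays examined, where chance alone gives about 1 in 20. They were vehicle arrays for Aldh3a1 (array 6, 3.522), Gclm (array 2, 10.174), Gstm3 (array 2, 3.768), Mt1 (array 3, 11.874), Per1 (array 4, 6.669), Slc22a19 (array 3, 12.359) and Upp2 (array 1, 3.014). MEF arrays stood apart for Aqp4 (array 30, 9.651), Fbxo32 (array 28, 4.499) and the mean correlation with the group (array 25, 0.99818). The gap for Gstm3 spans a few hundredths of a log2 unit. The vehicle value of Per1 on array 4 is above every MEF array.

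The response to MEF salts differed between tissues in the limma test of kidney minus jejunum. More positive in kidney were Cbr3 (1.743), Alas1 (1.347), Apoc3 (0.977, adjusted p = 0.00484), Ttr (0.946, adjusted p = 0.0376), Apoa1 (0.886, adjusted p = 0.00816) and G6pd2 (0.737, adjusted p = 0.0207). Crtap (0.899), Col1a1 (0.760), Pcp4 (0.714) and Myh11 (0.681) were more positive too, with jejunum differences of -0.56, -0.49, -0.50 and -0.55. More negative in kidney were Ces1g (-1.699), Ces1f (-1.441), Loxl4 (-1.248), Akr1b8 (-1.245), Gsta2 (-1.217), Mycbpap (-1.210), Ces1e (-1.037), Ada (-0.797), Zfp97 (-0.697) and Acy1 (-0.689).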

How the results depend on the processing

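The MEF salts minus vehicle count was 1520 calls as reported. It was 3549 with Nav as control and 2684 with array weights, and leaving out single arrays gave 1011 (without vehicle array 3) to 1600. With the hybridisation control covariate it was 1031, and 943 of these were among the 1520. Calls of at least 1.5-fold numbered between 31 and 60 under the alternatives other than Nav. For MEF salts minus DMF at 100 mg/kg the 257 calls became 1007 with array weights, 388 with the groups alone and 16 with the hybridisation control covariate. The 197 calls of the tissue comparison became 342 with the groups alone and 373 with a replicate block by the number in the titles. Whether these numbers mark animals is not stated. Of 14 pairs, 8 correlated above 0.1, and 7 of 14 arrays correlated best with their own number, a hint from the data and not the design. No paired analysis was possible because replicate numbers do not repeat between kidney groups. Counts of settings for named genes leave out Nav as control. Of 3326 values of named genes under the other alternatives, 2969 kept direction and call and 355 lost the call. The remaining 2 reversed, Fech (-0.044) and Psmd9 (-0.016) with the mean of probe sets. Of the 30 largest changes, 24 kept their call under all settings other than Nav. Upp2, Vcan, Acot7, Mep1b, Slc22a19 and Per1 did not. Against Nav, 13 of the 15 largest increases and 12 of the 15 largest decreases were called in the same direction. Interferon-stimulated genes called lower numbered 6 to 15 of those tested across settings and none was called higher. Signal near the lowest value limits the dim genes.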
